A study of Homo sapiens with 8 samples.

Results

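The genes described here are the protein-coding genes of chromosome 19 whose symbol is ZNF followed by a number. Each gene was taken by its symbol and position on GRCh37 alone, with no use of its expression. The set as such was chosen with earlier results of these data known. Of the 57773 genes in the RNA-seq count files, 238 met the rule, out of 1449 protein-coding genes counted on this chromosome. The cells were H9, an established human embryonic stem cell line, and 2 replicates were sequenced in each of 4 conditions. WT cells were wild type cells with an HA tag on their own CHD7 (CHD7-HA) and were untreated. CHD7 KO cells were CHD7 -/- and untreated. HERVH KD cells were the wild type (CHD7-HA) cells after 24 h with LNA-GapmeRs, antisense oligonucleotides that lead to cleavage of HERVH RNA. HERVH KO cells lacked a single HERVH element on chromosome 2 and were untreated. The knockout lines were picked as CRISPR-Cas9 clones, and the labels do not tie a replicate to a clone. HERVH KD was compared here with untreated WT, since no library of a control oligonucleotide was analysed here. Nothing in the labels says that replicates came from separate cultures, so the p-values measure only the spread between these samples, which may be technical.

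C2H2 zinc finger proteins bind DNA through tandem fingers, each holding a zinc ion between a pair of cysteines and a pair of histidines. Many of those encoded on chromosome 19 also carry a KRAB domain, which recruits KAP1 (TRIM28) and, through it, the H3K9 methyltransferase SETDB1. These KRAB zinc finger genes multiplied by tandem duplication, stand in clusters on the chromosome, and are known above all for silencing retroelements, including endogenous retroviruses, in early embryonic cells.

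The exons of these genes were low in GC content for their chromosome. The median was 43.1% over the 238 genes, with a range of 33.9% to 70.9%. A pattern of the KRAB domain was found in the annotated protein of 198 of them and not in 39, and 1 (ZNF274, whose annotated frame held stop codons) could not be read. Of the 33 genes with more than 50% GC, 23 had no KRAB pattern. The proteins held from 1 to 39 fingers, with a median of 12. The sequences below show what this difference in base composition looks like inside the same protein unit. Each is the coding strand of the first regular finger of a gene on GRCh37, with the codons of the cysteine and histidine pairs in capitals. Chosen among genes with a mean log2 CPM over 2, the first 3 differed most upward between the HERVH KD replicates (replicate 2 minus replicate 1), and the last 3 most downward.
ZNF358, chr19:7584585-7584647, plus strand: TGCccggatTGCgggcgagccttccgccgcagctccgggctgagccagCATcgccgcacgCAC
ZNF784, chr19:56133828-56133890, minus strand: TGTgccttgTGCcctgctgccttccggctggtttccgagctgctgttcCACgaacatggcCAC
ZNF837, chr19:58879821-58879883, minus strand: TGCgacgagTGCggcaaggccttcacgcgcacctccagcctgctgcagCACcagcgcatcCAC
ZNF100, chr19:21910433-21910495, minus strand: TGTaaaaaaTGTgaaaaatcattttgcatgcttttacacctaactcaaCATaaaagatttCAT
ZNF112, chr19:44832687-44832749, minus strand: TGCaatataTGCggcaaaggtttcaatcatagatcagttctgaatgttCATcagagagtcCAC
ZNF480, chr19:52825200-52825262, plus strand: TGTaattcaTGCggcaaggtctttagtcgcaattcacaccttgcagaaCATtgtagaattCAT
Of the 63 bases, 47 were G or C in ZNF358, 39 in ZNF784 and 43 in ZNF837. The same count was 16 in ZNF100, 25 in ZNF112 and 25 in ZNF480. The ZNF100 stretch stood at 2 places on chromosome 19, and each of the others at 1.

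Along the chromosome, 229 of the 238 genes fell into 9 clusters, taking neighbours no more than 1 Mb apart and at least 3 genes to a cluster. They are named here by their first and last gene. From the short-arm end, ZNF554 to ZNF77 (2.82 to 2.94 Mb) held 5 genes, ZNF557 to ZNF846 (7.07 to 9.90 Mb) held 15, and ZNF653 to ZNF791 (11.59 to 12.75 Mb) held 25. ZNF101 to ZNF254, next to the centromere at 19.78 to 24.31 Mb, held 37. On the long arm, ZNF302 to ZNF792 (35.17 to 35.46 Mb) held 5, ZNF565 to ZNF573 (36.67 to 38.31 Mb) held 24, and ZNF575 to ZNF296 (44.03 to 45.58 Mb) held 23. The last pair, ZNF175 to ZNF331 (52.07 to 54.08 Mb) and ZNF628 to ZNF446 (55.99 to 58.99 Mb), held 39 and 56. The other 9 genes, among them ZNF536, a repressor of neuronal differentiation, stood outside clusters. The median GC content of the tested genes was lowest in the ZNF101 to ZNF254 cluster, at 38.2%, and was 46.7% in the ZNF628 to ZNF446 cluster.

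The libraries held 14802049 to 23156445 reads on genes, with HERVH KD replicate 2 the smallest. CHD7 itself was at 651 and 650 CPM (read counts scaled to a common library total by TMM) in WT and at 197 and 197 CPM in CHD7 KO, lower in both knockout libraries, as their labels say (log2 fold change −1.72). The pluripotency markers POU5F1, SOX2, NANOG, LIN28A and DPPA4 were present in all libraries, NANOG lowest, at 64.4 to 87.0 CPM, while SOX1, TBXT, HAND1, GATA6 and SOX17 stayed below 0.5 CPM. PAX6 ran from 0.878 to 3.21 CPM. AFP was at 0.554 and 0.655 CPM in WT and at 1.81 and 2.11 CPM in HERVH KD (edgeR FDR = 0.113, or 0.0417 with GC correction). In bulk RNA, a change in the number of cells that express a gene and a change in RNA per cell cannot be told apart.

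In WT cells the RNA level of the zinc finger genes varied widely. The median was 8.93 CPM, 51 genes had a WT mean below 1 CPM, and 50 had more than 30 CPM. Together they took 0.452% and 0.468% of the reads in the WT libraries. Averaged over all 8 libraries, the 193 genes kept by the filter on low counts had a median log2 CPM of 3.80. That median was 2.55 for all genes tested and 4.13 for the other protein-coding genes of chromosome 19. Per kb of exon, the scale on which genes can be compared, the highest was ZNF146, a short protein made of fingers alone, at 53.0 CPM per kb. It had 238 and 201 CPM in WT, 220 and 187 in CHD7 KO, 211 and 190 in HERVH KD, and 219 and 207 in HERVH KO, so that every condition overlapped with WT. ZNF724 followed at 25.7 CPM per kb, then ZNF121 at 25.0, ZNF460 at 19.4 and ZNF480 at 19.2. In WT, the 2 libraries of ZNF724 and those of ZNF121 overlapped in level per kb, and so did those of ZNF460 and ZNF480, so that neither pair has an order beyond its spread. The median of the 238 genes was 1.80 CPM per kb.

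**Figure D1:**
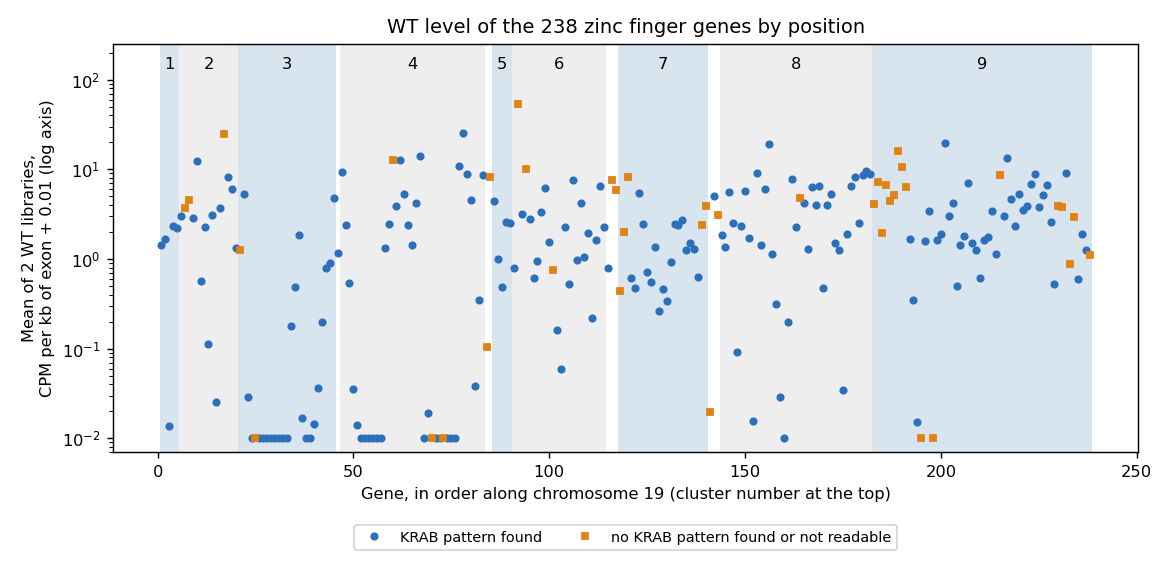
WT level of each of the 238 zinc finger genes (mean of 2 libraries, CPM per kb of exon plus 0.01, log axis) in order along chromosome 19, with the 9 clusters shaded and numbered from the short-arm end. Blue circles are genes with a KRAB pattern and orange squares the others. Runs of neighbouring genes lie at the bottom of the axis in clusters 3 and 4, ZNF653 to ZNF791 and ZNF101 to ZNF254.

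The genes with few or no reads were not scattered evenly along the chromosome. The filter on low counts left 193 of the 238 genes (81.1%), as against 72.8% of the other protein-coding genes of chromosome 19 and 90.9% of the ZNF genes of other chromosomes. Of the 45 that did not pass, 34 stood in 2 clusters, 16 of 25 in ZNF653 to ZNF791 and 18 of 37 in ZNF101 to ZNF254. They formed runs of neighbours. The 11 consecutive genes from ZNF823 to ZNF844 (11.83 to 12.19 Mb) held 4 reads in all 8 libraries together, and 8 of them held none. The 9 from ZNF208 to ZNF728 (22.12 to 23.19 Mb) held 11 reads, and the 8 from ZNF253 to ZNF66 (19.98 to 20.99 Mb) held 23. A run of 5, ZNF44 to ZNF443 (12.34 to 12.55 Mb), held 50.

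These runs included genes whose role is known. ZNF93, which represses L1 elements, had 1 read in a WT library and none in the other 7 libraries. ZNF90, ZNF676 and ZNF728 had no read in any library, nor did ZNF534 in the ZNF175 to ZNF331 cluster. In all, 21 genes had no read anywhere. A count of 0 allows up to 3 counts per library, or 0.130 CPM in the deepest library and 0.203 CPM in the shallowest. This covers counting error only. Reads that map to several places were not counted, which can hide genes with near-identical copies. Ambiguous reads, which fit more than 1 gene, were not counted either. By the annotation used here, 77 of the 238 genes overlapped an exon of another gene on the same strand. ZNF700, ZNF763, ZNF433 and ZNF878 of the ZNF823 to ZNF844 run were among them. In the ZNF823 to ZNF844 run no gene shared more than 7.83% of its exonic windows of 50 bases with another of the 238, and in the ZNF208 to ZNF728 run 2 genes shared more than 20%.

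Other genes of these same 2 clusters were well expressed between the runs. ZNF91, the repressor of SVA elements, had 97.5 and 87.0 CPM in WT and 96.3 and 71.2 CPM in HERVH KD. ZNF714 was the highest of the ZNF101 to ZNF254 cluster by mean log2 CPM, at 97.3 and 106 CPM in WT, 122 and 111 in CHD7 KO, 153 and 135 in HERVH KD, and 120 and 118 in HERVH KO. All 6 libraries of the other conditions lay above both WT libraries for this gene.

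The question for CHD7 KO was which of these genes depend on the chromatin remodeler CHD7, directly or not. By edgeR's quasi-likelihood test over 23474 genes, 1 of the 193 tested genes changed in CHD7 KO at an FDR below 0.01 and at least 2-fold, while 0.571% of all genes tested did. It was ZNF558 (ENSG00000167785; chr19:8916846-8942990, minus strand), a KRAB zinc finger repressor known to act on SPATA18, a regulator of mitochondrial quality. Its level was 23.4 and 23.2 CPM in WT and 6.47 and 9.79 CPM in CHD7 KO. In HERVH KD it was 29.1 and 23.6 CPM, and in HERVH KO 21.2 and 20.8 CPM. Both CHD7 KO libraries lay below the other 6, which stood between 20.8 and 29.1 CPM. The log2 fold change was −1.52 ± 0.23 (SE, n = 2 per group, edgeR FDR = 0.00369). An exon of another gene overlaps ZNF558 on the other strand, and the strand setting of the counting is not given in the sources used here. With 1 of the 4 WT or CHD7 KO libraries left out, the count at this threshold was 0 each time, and without CHD7 KO replicate 1 the FDR of ZNF558 was 0.0941.

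At an FDR below 0.05, ZNF558 was the 1 gene lower, beside a background of 0.613%, and none was higher, beside 1.19% of all genes. At an unadjusted p below 0.05, 9 were higher (4.66%, where all genes gave 6.25%) and 7 lower (3.63%, where all genes gave 4.61%). DESeq2 also called ZNF558 alone. In a fit of WT and CHD7 KO alone, 4 of 194 zinc finger genes passed an FDR of 0.05, where 1285 of 22205 genes did. The median log2 fold change of the 193 genes was −0.01, as it was over all genes tested, and 94 had a positive and 99 a negative value. Both CHD7 KO libraries lay above both WT libraries for 51 of them (26.4%, where all genes gave 21.5%) and below for 45 (23.3%, where all genes gave 22.4%). The other protein-coding genes of chromosome 19 had a median of −0.14, which was −0.02 after correction for GC content.

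Among the genes with a mean log2 CPM over 1, the next largest values in CHD7 KO were those of ZNF836, ZNF530, ZNF221, ZNF155 and ZNF613 on the higher side. None passed the test (edgeR FDR 0.281 to 0.655). ZNF221 had 7.16 and 5.99 CPM in WT and 11.0 and 9.20 CPM in CHD7 KO, and ZNF613 had 9.33 and 10.1 CPM in WT and 13.3 and 14.6 CPM in CHD7 KO. On the lower side ZNF71 had 21.0 and 20.6 CPM in WT and 12.9 and 13.0 CPM in CHD7 KO, a log2 fold change of −0.68 ± 0.23 (SE, edgeR FDR = 0.193). ZNF358, ZNF555 and ZNF565 followed ZNF558 on this side with log2 fold changes of −0.75, −0.72 and −0.55, of which none passed.

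For HERVH KD the question was whether these genes respond to the loss of HERVH RNA. More of the zinc finger genes were higher than lower in HERVH KD, but the 2 HERVH KD libraries differed, and the level of replicate 2 depended on the scaling. The summed level of the 238 genes was 4530 and 4648 CPM in WT, 4624 and 4576 in CHD7 KO, 4630 and 4660 in HERVH KO, and 5459 and 4766 in HERVH KD. On this TMM scale replicate 1 of HERVH KD stood well above the other 7 libraries and replicate 2 above the remaining 6. As a share of all reads on genes, replicate 1 was again the highest, at 0.561%, but replicate 2 was the lowest, at 0.442%, with the other 6 libraries at 0.451% to 0.474%. The median of the 193 tested genes, relative to the WT mean, was 0.26 on the log2 scale in replicate 1 and 0.06 in replicate 2. In the WT libraries the same median was −0.04 and 0.04.

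The difference between the 2 HERVH KD libraries varied with GC content. Replicate 2 minus replicate 1 had a median of −0.19 (log2 CPM) over the 193 genes and was negative for 133 of them (68.9%). Over the other 881 tested protein-coding genes of chromosome 19, whose median GC content was 59.7%, the same median was 0.62, and 11.5% were negative. For the 159 genes with a KRAB pattern, at a median GC content of 42.9%, the median difference was −0.29. For the 33 without the pattern, at 59.8% GC, it was 0.48. Across the 193 genes Spearman's rho between GC content and the difference was 0.56, as a description over genes that share 2 libraries. It was 0.00 after a smooth trend on GC content was removed. That trend was fitted per library on the other tested genes with a mean log2 CPM over 1. WT replicate 2 minus replicate 1 also varied with GC content (rho = 0.27), with a median of 0.08.

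**Figure D2:**
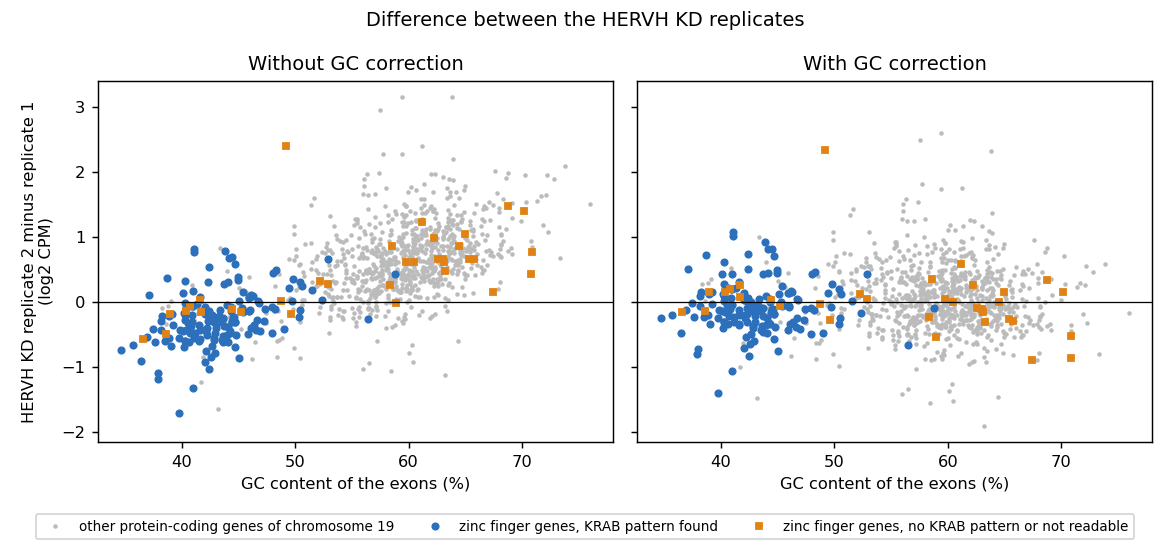
Log2 CPM of HERVH KD replicate 2 minus replicate 1 against the GC content of the exons (%), without (left) and with (right) GC correction. Blue circles are the zinc finger genes of chromosome 19 with a KRAB pattern, orange squares those without and ZNF274, and grey dots the other 881 tested protein-coding genes of the chromosome. On the left the median is −0.29 for the genes with a KRAB pattern and 0.62 for the grey dots, and on the right −0.11 and 0.03.

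The same genes whose fingers are shown above give the size of this difference. ZNF358, at 68.7% GC, had 6.46 CPM in HERVH KD replicate 1 and 18.2 CPM in replicate 2, with 6.83 and 8.56 CPM in WT. ZNF837 had 4.60 and 12.3 CPM, and ZNF784 had 5.53 and 11.5 CPM. In the opposite direction, ZNF480, at 37.9% GC, had 142 CPM in replicate 1 and 62.3 CPM in replicate 2, with 90.5 and 96.0 CPM in WT, so that the HERVH KD libraries lay on both sides of WT. ZNF100 had 37.9 and 20.1 CPM, and ZNF112 had 6.90 and 2.69 CPM. After GC correction the difference was −0.81 for ZNF480, −1.06 for ZNF112 and 0.33 for ZNF358. These genes were chosen as the extremes of this difference.

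Against WT, HERVH KD gave a median log2 fold change of 0.19 over the 193 genes, with 138 higher (71.5%), while the median over all genes tested was 0.04 with 52.9% higher. With GC correction the median was 0.23, and 76.7% were higher. The other protein-coding genes of chromosome 19 had a median of 0.14 without the correction and −0.02 with it. The ZNF genes of other chromosomes had 0.08 and 0.12. Without HERVH KD replicate 1 the uncorrected median was 0.00, and without replicate 2 it was 0.25. Corrected for GC content, both replicates were above WT, with medians of 0.29 and 0.19, and the WT libraries were at −0.06 and 0.06. No p-value is given for these medians, since genes are not replicates. HERVH KD replicate 2 also stood apart in COL1A1, a marker of mesenchymal cells, at 269 CPM against 93.6 in replicate 1 and 83.6 and 67.5 in WT, and its part in these values was not tested.

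Other protein-coding genes of any chromosome with the same range of GC content had lower medians. The 193 genes were divided by GC content into parts of 65, 64 and 64 genes. In the lowest (34.7% to 42.0%), the median log2 fold change in HERVH KD was 0.10, against −0.13 for 3521 other protein-coding genes in that range. In the middle part (42.0% to 45.1%) it was 0.14, against −0.07 for 1891 genes. In the highest part (45.2% to 70.9%) it was 0.35, against 0.07 for 9118 genes. GC content was not alike within this part, with a median of 49.8% for the zinc finger genes and 54.6% for the others. With GC correction the medians of the log2 fold change in this part were 0.30 and −0.02. In the lowest and middle parts the median GC contents were closer, at 40.3% and 39.3%, and at 43.6% and 43.5%. In each part, the median of the zinc finger genes was above that of the others in both libraries. In replicate 1 these medians, from low to high GC content, were 0.26, 0.31 and 0.20 for the zinc finger genes and 0.01, −0.01 and −0.11 for the others. In replicate 2 they were −0.02, −0.02 and 0.38 for the zinc finger genes and −0.32, −0.16 and 0.21 for the others.

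Both HERVH KD libraries lay above both WT libraries for 70 of the 193 genes (36.3%), where 22.5% of all genes tested and 33.8% of the ZNF genes of other chromosomes did so. They lay below for 17 (8.81%), where 22.3% of all genes and 17.1% of the other ZNF genes did. After GC correction the counts were 101 (52.3%, with a background of 26.5%, and 41.4% of the other ZNF genes) and 19 (9.84%, with a background of 24.7%, and 18.6% of the other ZNF genes). The difference from the other ZNF genes was not tested.

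The medians varied along the chromosome, though differences between clusters were not tested. With GC correction, the medians of the 13 tested genes of ZNF557 to ZNF846 were 0.26 and 0.24 in HERVH KD replicates 1 and 2, and those of the 9 of ZNF653 to ZNF791 were 0.32 and 0.26. The 19 genes of ZNF101 to ZNF254 had 0.42 and 0.24, the 23 of ZNF575 to ZNF296 had 0.40 and 0.22, and the 53 of ZNF628 to ZNF446 had 0.36 and 0.26. In each of these clusters both libraries were above WT. The 24 genes of ZNF565 to ZNF573 were lower, at 0.18 and 0.16. In ZNF175 to ZNF331, with 35 tested genes, the libraries differed in sign, at 0.14 and −0.10. The small clusters had 0.05 and 0.24 (ZNF554 to ZNF77, 4 tested genes) and 0.29 and 0.43 (ZNF302 to ZNF792, 5 tested genes).

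Without the correction the ZNF101 to ZNF254 cluster, lowest in GC content, split most widely, at 0.45 in replicate 1 and 0.00 in replicate 2. ZNF175 to ZNF331 had 0.16 and −0.24. Of its 35 genes, 32 (91.4%) were lower in replicate 2 than in replicate 1, beside 47.4% of all genes. In ZNF628 to ZNF446 the uncorrected medians were 0.30 and 0.33. Of its 53 genes, 47 (88.7%) had a positive log2 fold change, beside 52.9% of all genes. Both HERVH KD libraries lay above both WT libraries for 30 of them (56.6%), beside 22.5% of all genes. In ZNF175 to ZNF331, 16 of 35 genes (45.7%) had a positive value, and 3 (8.57%) lay above WT in both libraries. The other tested protein-coding genes within these spans had a positive median log2 fold change. It was 0.22 for 27 genes in ZNF628 to ZNF446 and 0.47 for 4 in ZNF175 to ZNF331. With GC correction it was 0.12 and 0.42.

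**Figure D3:**
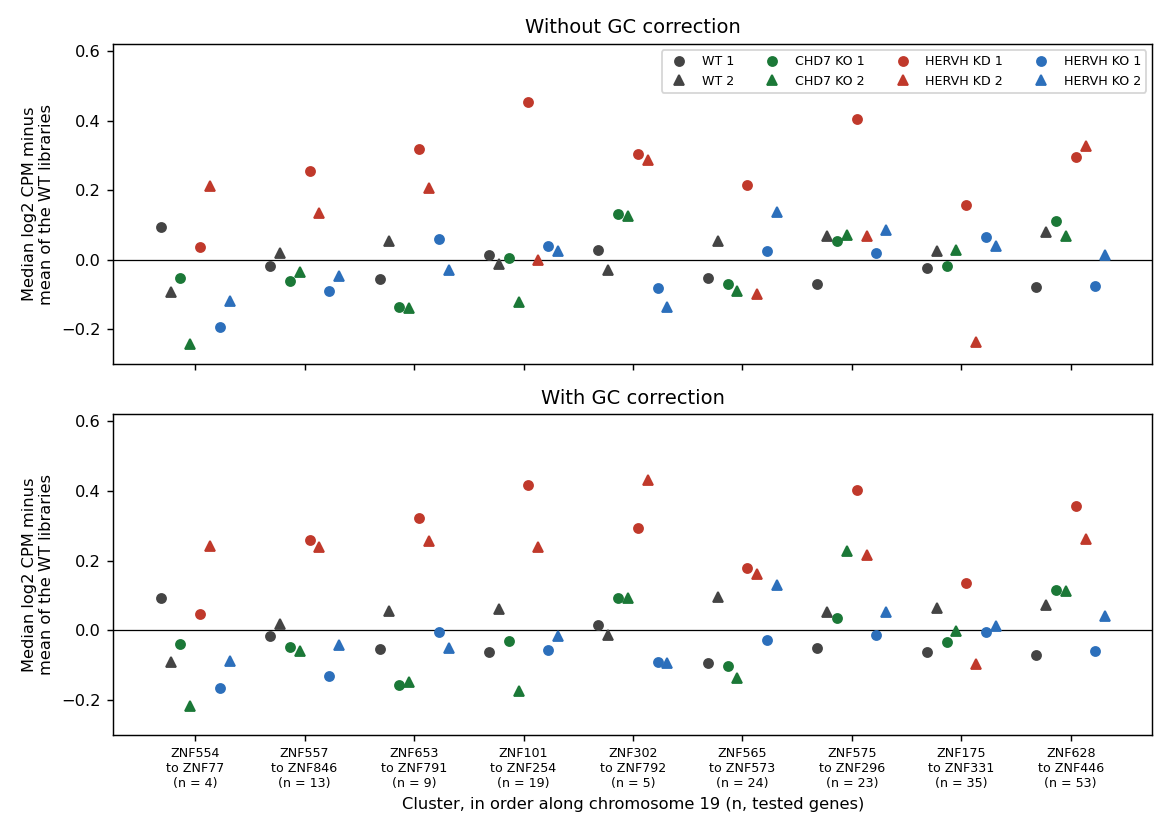
Median log2 CPM, minus the mean of the 2 WT libraries, of the tested zinc finger genes of each cluster in each of the 8 libraries, without (top) and with (bottom) GC correction. Circles are replicate 1 and triangles replicate 2. HERVH KD (red) is above WT in both libraries of most clusters in the bottom panel, and at 0.14 and −0.10 in ZNF175 to ZNF331.

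Few single genes passed the test in HERVH KD. None of the 193 had an FDR below 0.01 and a 2-fold change by edgeR's quasi-likelihood test, where 0.217% of all genes did. At an unadjusted p below 0.05, 29 were higher (15.0%, where all genes gave 9.19%) and 2 lower (1.04%, where all genes gave 9.82%). DESeq2 called 1, ZNF555, at the stricter threshold. At an FDR below 0.05, 1 gene rose, beside 0.618% of all genes, and 1 fell, beside 1.53%. In a fit of WT and HERVH KD alone, 0 of 192 zinc finger genes passed this FDR, where 57 of 21658 genes did. ZNF416 (ENSG00000083817; chr19:58082934-58090279, minus strand), a KRAB zinc finger gene of the ZNF628 to ZNF446 cluster, had 8.27 and 9.31 CPM in WT, and 19.5 and 14.5 CPM in HERVH KD. In CHD7 KO it had 9.38 and 10.8 CPM and in HERVH KO 8.04 and 8.63 CPM. Its HERVH KD libraries were the 2 highest of the 8 (log2 fold change 0.95 ± 0.23, SE, edgeR FDR = 0.0498). Leaving out WT replicate 1, WT replicate 2 or HERVH KD replicate 1 took the FDR to 0.434, 0.125 and 0.0579, a fit of WT and HERVH KD alone to 0.199, and a replicate block to 0.0501.

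ZNF555 (ENSG00000186300; chr19:2841435-2860469, plus strand), a KRAB zinc finger gene of the ZNF554 to ZNF77 cluster, was the gene that fell. It had 16.7 and 12.0 CPM in WT and 5.69 and 7.06 CPM in HERVH KD (log2 fold change −1.17 ± 0.28, SE, edgeR FDR = 0.0486). In CHD7 KO it had 6.84 and 10.6 CPM and in HERVH KO 11.0 and 8.96 CPM. All 6 libraries of the other conditions thus lay below both WT libraries, which differed from each other, and the 3 comparisons share those WT libraries. Without WT replicate 1 the FDR of ZNF555 in HERVH KD was 0.452, without WT replicate 2 it was 0.067, and in a fit of WT and HERVH KD alone it was 0.130. Both ZNF416 and ZNF555 overlap an exon of another gene on the other strand.

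With GC correction, 18 of the 193 genes rose in HERVH KD at an FDR below 0.05 (9.33%), where 3.46% of all genes rose. ZNF genes of other chromosomes gave nearly the same share, 19 of 210 (9.05%). ZNF555 alone fell (0.518%), where 5.09% of all genes and 4.29% of the ZNF genes of other chromosomes fell. This rule was added after the data had been seen. Of the 18, 8 were among the 53 tested genes of ZNF628 to ZNF446 (ZNF134, ZNF274, ZNF324, ZNF416, ZNF418, ZNF530, ZNF549 and ZNF583). ZNF101 to ZNF254 held 3 among 19 (ZNF431, ZNF708 and ZNF714), and ZNF557 to ZNF846 held 2 among 13 (ZNF557 and ZNF561). ZNF565 to ZNF573 held 2 among 24 (ZNF790 and ZNF793), and ZNF575 to ZNF296 held 2 among 23 (ZNF45 and ZNF180). ZNF175 to ZNF331 held 1 among 35 (ZNF320). ZNF274, which recruits SETDB1 to the 3′ ends of zinc finger genes, had 28.5 and 35.1 CPM in WT and 42.8 and 52.1 CPM in HERVH KD, with a corrected log2 fold change of 0.51 ± 0.14 (SE, edgeR FDR = 0.0327). In CHD7 KO it had 29.0 and 30.3 CPM and in HERVH KO 28.5 and 31.3 CPM, close to or within the WT range. ZNF134 had 42.8 and 45.9 CPM in WT and 65.6 and 61.1 CPM in HERVH KD, but its CHD7 KO libraries, at 57.0 and 57.1 CPM, were also above WT.

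The largest positive values in HERVH KD without the correction were those of ZNF583, ZNF416, ZNF790, ZNF324 and ZNF530. ZNF790 had 5.36 and 6.64 CPM in WT and 11.9 and 11.3 CPM in HERVH KD (log2 fold change 0.95 ± 0.27, SE, edgeR FDR = 0.0829). ZNF324 had 6.19 and 7.90 CPM in WT and 11.2 and 15.0 CPM in HERVH KD, but 25.1% of its exonic windows occur in another of the 238 genes. The most negative after ZNF555 were ZNF524, ZNF333, ZNF546 and ZNF571, with log2 fold changes of −0.77, −0.63, −0.44 and −0.42, of which none passed. ZNF333 had 14.6 and 12.3 CPM in WT and 8.49 and 8.89 CPM in HERVH KD.

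HERVH KO asked what the loss of 1 HERVH element does. The group as a whole stood close to WT. The median log2 fold change of the 193 genes in HERVH KO was −0.01 (−0.02 over all genes), with 96 higher and 97 lower. Both libraries lay above both WT libraries for 34 genes (17.6%, with a background of 17.7%) and below for 31 (16.1%, with a background of 20.3%). None had an FDR below 0.01 and a 2-fold change by edgeR, where 0.0298% of all genes did. At an unadjusted p below 0.05, 2 were higher (1.04%, where all genes gave 0.895%) and 5 lower (2.59%, where all genes gave 1.73%), and DESeq2 called 1 at the stricter threshold.

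That gene was ZNF726 (ENSG00000213967; chr19:24097678-24127961, plus strand), a KRAB zinc finger gene near the centromeric end of the ZNF101 to ZNF254 cluster. At an FDR below 0.05 it was the 1 gene lower, beside 0.0724% of all genes, and none was higher, as among all genes (0%). It had 42 and 46 reads in WT, 78 and 75 in CHD7 KO, 65 and 22 in HERVH KD, and 2 and 1 in HERVH KO. In CPM this was 1.94 and 2.15 in WT, 3.60 and 4.03 in CHD7 KO, 3.56 and 1.60 in HERVH KD, and 0.0855 and 0.054 in HERVH KO. The HERVH KO libraries lay below the other 6 with no overlap. The fitted log2 fold change was −4.72 ± 0.64 (SE, edgeR FDR = 0.0108), and DESeq2 and edgeR with RLE scaling placed it past the stricter threshold. From the summed reads, 88 against 3, the WT level was 28.6 times that in HERVH KO, with an exact 95% interval of 9.46 to 141 that covers counting error only. Without WT replicate 2 or either HERVH KO library the FDR was 0.0742 to 0.136. An exon of another gene overlaps it on the other strand.

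**Figure D4:**
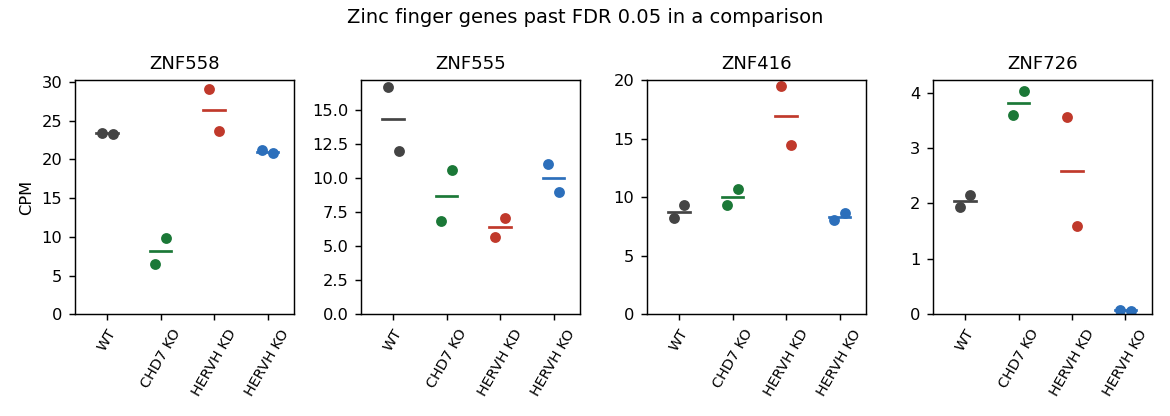
CPM of the 4 zinc finger genes past an FDR of 0.05 in a comparison with WT, in each library (points) with the mean of the 2 libraries (lines), on linear axes from 0. ZNF558 is at 6.47 and 9.79 CPM in CHD7 KO, ZNF555 at 5.69 and 7.06 and ZNF416 at 19.5 and 14.5 in HERVH KD, and ZNF726 near 0 in HERVH KO.

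Other values in HERVH KO were smaller. ZNF577 had 14.4 and 17.3 CPM in WT and 27.0 and 23.3 CPM in HERVH KO (log2 fold change 0.67 ± 0.23, SE), and ZNF506 had 4.89 and 5.24 CPM in WT and 7.27 and 8.90 CPM in HERVH KO (0.67 ± 0.29, SE). ZNF132 had 7.11 and 6.73 CPM in WT and 4.53 and 4.86 CPM in HERVH KO, a log2 fold change of −0.56 ± 0.24 (SE). Its HERVH KD libraries, at 9.09 and 8.59 CPM, were above WT. None of the 3 passed the test (edgeR FDR 1). By cluster, the GC-corrected medians of the HERVH KO libraries ran from −0.17 to 0.13.

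Of the zinc finger genes with a known link to retroelements, ZNF91, ZNF587, ZNF417 and ZNF611 did not pass the test in any comparison. ZNF274 passed only under GC correction, in HERVH KD. ZNF93, ZNF90, ZNF676, ZNF728 and ZNF534 had too few reads and were not tested. ZNF587 and ZNF417, a closely related pair that acts on HERVK LTRs, had 60.7 and 69.8 CPM and 19.4 and 20.5 CPM in WT. In HERVH KD they had 78.3 and 70.1 CPM and 22.6 and 19.1 CPM, overlapping WT in the case of ZNF417. They share 39.1% and 32.4% of their exonic windows with another of the 238, so that their counts are uncertain. ZNF611, which binds SVA elements, had 29.4 and 30.9 CPM in WT and 39.0 and 32.0 CPM in HERVH KD (log2 fold change 0.24 ± 0.18, SE, edgeR FDR = 0.504). For ZNF91 the log2 fold change in HERVH KD was −0.14 ± 0.17 (SE), or 0.00 with GC correction.

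The remaining genes fixed for their role gave no call either. ZNF331, an imprinted gene, had 70.1 and 84.0 CPM in WT and 67.2 to 83.4 CPM in the other 6 libraries. ZNF296, which is linked to pluripotency, had 5.08 and 7.67 CPM in WT and 10.3 and 11.5 CPM in HERVH KD (log2 fold change 0.77 ± 0.26, SE, edgeR FDR = 0.142). ZNF224, a KAP1-dependent repressor, had 2.12 and 2.53 CPM in WT and 1.59 and 2.77 CPM in HERVH KD. ZNF382 had 7.39 and 6.13 CPM in WT and 6.08 and 4.81 CPM in HERVH KD. ZNF536 had 24 and 18 reads in WT, 7 and 6 in CHD7 KO, and 1 and 10 in HERVH KD. ZNF350, a partner of BRCA1, and ZNF541, a meiotic factor, had at most 15 and 6 reads in a library and were not tested.

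The partners through which KRAB zinc finger proteins act were read from the same fit. Of a list of 23 genes of KAP1-dependent silencing, 22 were found and tested. In CHD7 KO 2 of the 22 rose at an FDR below 0.05 (1.19% of all genes did) and none fell (0.613% of all genes did), by edgeR. DESeq2 also called 2, where 678 of 42395 genes passed in either direction. SETDB1, the methyltransferase itself, had 55.3 and 49.4 CPM in WT and 87.0 and 88.4 CPM in CHD7 KO (log2 fold change 0.74 ± 0.16, SE, edgeR FDR = 0.0313). It lies at chr1:150898739-150937220, and whether its neighbours on that chromosome rose with it was not tested here. CHD3, a subunit of the NuRD complex and a paralog of CHD7, had 76.0 and 73.0 CPM in WT and 115 and 125 CPM in CHD7 KO (0.69 ± 0.16, SE, edgeR FDR = 0.046). On leaving out 1 WT or CHD7 KO library, neither passed (FDR 0.146 to 0.339 for SETDB1 and 0.229 to 0.372 for CHD3). The median of the 22 was 0.11.

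In HERVH KD none of the 22 passed an FDR of 0.05 by edgeR (0.618% of all genes were higher and 1.53% lower). At an unadjusted p below 0.05, 4 of the 22 were higher (9.19% of all genes were) and 2 lower (9.82% of all genes were). DESeq2 called 1 in each direction, where 1144 of 42395 genes passed in either direction. With GC correction, under the rule added after seeing the data, 4 passed an FDR of 0.05: DNMT3A rose, and ATF7IP, ATRX and CHD3 fell (edgeR FDR 0.0105 to 0.0392). All genes gave 3.46% higher and 5.09% lower under that rule. In HERVH KO none passed by either tool, and 1 was higher at an unadjusted p below 0.05 (0.895% of all genes were). TRIM28 had 953 and 1135 CPM in WT, and 1085 and 1685 CPM in HERVH KD. Its HERVH KD replicates thus differed from each other by more than the mean differed from WT (log2 fold change 0.41 ± 0.19, SE, edgeR FDR = 0.261).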

How the data were processed

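RNA was sequenced from 8 libraries of H9 cells, 2 per condition. Per the labels and the study's methods, the authors made rRNA-depleted, strand-specific libraries, aligned them with STAR (hg19) and used HTSeq to count reads per gene. The deposited values are raw read counts per gene. Versions and the strand setting are not given in the sources used here. Rows that name no gene were left out (unassigned reads, 34.9% to 42.5% of those assessed, and ambiguous reads, 3.81% to 4.75%).

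From the counts, CPM and log2 CPM (prior count 2) were computed with TMM scaling in edgeR 4.0.16 (R 4.3.3, limma 3.58.1). Genes kept by filterByExpr, 23474 in all, entered 1 quasi-likelihood fit of the 8 libraries with group as factor and 4 residual degrees of freedom. All groups thus shared 1 estimate of the spread, although the HERVH KD replicates differed more than those of WT. Over all genes tested, the median size of the difference was 0.45 (log2 CPM) in HERVH KD and 0.26 in WT. P-values were adjusted by Benjamini-Hochberg over all genes. Each SE is the size of the log2 fold change divided by the square root of the quasi-likelihood F statistic. It thus rests on the spread estimated over all groups, not on the 2 libraries of a group alone. A call needed an FDR below 0.01 and a 2-fold change, and 0.05 was used in addition. Positions, exonic GC content and proteins came from GENCODE v44 on GRCh37, which placed 55538 genes (96.1%) and held 240 genes of the rule, of which 238 were counted. For GC correction, a loess curve (span 0.3) of each library's deviation on GC content, fitted without these zinc finger genes, was subtracted, or entered the fit as an offset. The curve was fitted on tested genes with a mean log2 CPM over 1 and applied to all tested genes. KRAB domains and fingers were found as amino acid patterns in translated coding sequences. DESeq2 1.42.0 and other settings were alternatives. Tables and plots were made with Python 3.11.15, pandas 2.3.3, numpy 2.4.6 and matplotlib 3.10.9. The scripts were tested on simulated data.

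The genes and lists were chosen with earlier results of these data known. Named are the genes past an FDR of 0.05, the 5 largest rises and falls per comparison above a mean log2 CPM of 1, a list by role, some of the highest, first and last genes of the clusters, the 3 largest and 3 smallest differences between HERVH KD replicates above a mean log2 CPM of 2, and KAP1 partners. The replicate numbers were not taken as pairs. Deviations of same-numbered libraries from their group means correlated with those of WT at −0.06, 0.05 and 0.12 for CHD7 KO, HERVH KD and HERVH KO.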

Additional observations from a re-analysis of the deposited data

How the results depend on the processing

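The medians of the zinc finger genes moved by less than the spread between replicates under RLE scaling, DESeq2, no filter, a fit of the 2 groups alone and GC correction in each comparison. This spread was the SD of the replicate medians of the zinc finger genes, pooled over WT and the compared group. It was 0.040 in CHD7 KO, 0.106 in HERVH KD and 0.043 in HERVH KO (log2). The limit was thus loosest in HERVH KD, whose replicates differed most. The genes behind the medians changed with the setting: 217 under DESeq2 and without a filter, and 192 to 194 in the fits of 2 groups. Exceptions arose on leaving out a library. The HERVH KD median ran from 0.0037 (without HERVH KD replicate 1) to 0.25, that of CHD7 KO from −0.0044 to 0.046, against −0.013 with all libraries, and that of HERVH KO from −0.0047 to 0.033. The count of calls on leaving out a library was 0 to 0 in CHD7 KO (1 with all libraries), 0 to 2 in HERVH KD and 0 to 0 in HERVH KO. In HERVH KD, where edgeR called 0, it was 1 with DESeq2 and 1 without a filter, 2 at an FDR below 0.05 without a fold minimum, and 19 with GC correction at that threshold, a rule chosen after seeing the data. In HERVH KO, where edgeR also called 0, it was 1 with RLE scaling, DESeq2, no filter, GC correction, GC correction with the replicate block, and an FDR below 0.05 with or without GC correction. The difference between the HERVH KD replicates was −0.34 with library size alone and −0.091 with GC correction. The cause of these changes was not tested, beyond what fewer samples or the GC term do by construction. Under a replicate block, the numbers of calls were 1, 0 and 0 in CHD7 KO, HERVH KD and HERVH KO, the medians −0.01, 0.19 and 0.00, and ZNF416 had an FDR of 0.0501. The calls of ZNF558, ZNF555, ZNF726, SETDB1 and CHD3 at 0.05 remained under the block. With GC correction the block left 18 of the 19 calls in HERVH KD, without ZNF45. Same-numbered libraries did not all deviate together, so that the numbers were not read as pairs. Clusters numbered 10 (226 genes) with a gap of 0.5 Mb and 6 (234 genes) with 2 Mb. With 2 replicates, and 14802049 reads in the shallowest library, changes of genes below about 1 CPM could not be resolved.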
